A study of Mus musculus with 7 samples.

Results

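Transcripts for Smo, the 3 Gli transcription factors and 6 proteins that act on them were examined in C3H10T1/2 cells exposed to purmorphamine, a small-molecule agonist of Smo. The genes were Smo, Gli1, Gli2, Gli3, Sufu, Kif7, Spop, Stk36, Gsk3b and Csnk1a1, chosen by their symbols, and they make up 10 of the 18468 genes in the deposited table and 10 of the 12388 with enough reads to be tested. C3H10T1/2 is an established mouse line of mesenchymal character, and no allele, transgene or clone distinguished the groups. One group was treated with 2 μM purmorphamine for 48 h (n = 4 libraries, numbered 5 to 8) and the other with the vehicle, 0.02% DMSO, for the same time (n = 3, numbered 2 to 4). Both groups had been without serum for 12 h beforehand and remained so. Nothing in the labels ties a library to its own culture, so the p-values below measure the spread between these libraries, which may be technical.

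In Hedgehog signalling the receptor Ptch1 holds Smo, a protein with 7 membrane-spanning segments, inactive until a Hedgehog ligand binds Ptch1. Active Smo gathers in the primary cilium and frees the Gli proteins from Sufu, which otherwise holds them in the cytoplasm. Without the signal, phosphorylation by protein kinase A, GSK3β and CK1 leads to cleavage of Gli3, and in part of Gli2, to repressors. With the signal, Gli2 and Gli3 act as activators, and Gli1, which lacks the repressor form, is itself transcribed in response. Gli1 transcripts are for this reason a common readout of the pathway, and fibroblast-like mesenchymal lines such as this one have long been used to assay it.

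Each library held between 14337225 and 14342154 reads, because the authors had resampled reads to equal numbers before counting. Over all genes, pairs of libraries of 1 group differed with a mean chi-square per gene of 2.12 to 8.36, above the value near 1 that sampling alone gives, and pairs from different groups of 45.9 to 59.1, so that no library was counted as a repeat of another. All 10 mesenchymal markers (Col1a1, Vim, Prrx1 and others) were in the table, with a summed 286617 to 305891 reads with vehicle and 249352 to 267936 with purmorphamine. Of these, 4 were higher (Thy1, Prrx1, Twist1 and Twist2), 3 lower (Col1a2, Vim and S100a4) and 3 not called by edgeR, and Vim, at 80155 ± 1150 reads with vehicle and 42480 ± 843 with purmorphamine, made up most of the fall of the sum. Sums over 4 endothelial markers went from 779 to 820 reads to 1898 to 2154, mostly from Tek. Cdh5 was at 0 reads in all vehicle libraries and at 21, 26, 22 and 24 in the purmorphamine libraries, and Pecam1 and Kdr stayed at 5 reads or fewer in every library. Epithelial markers (2 of 4 in the table) went from 14 to 22 reads to 110 to 135, nearly all Cdh1. The 4 osteoblast markers went from 82 to 98 reads to 12 to 30, mostly Dmp1, and Adipoq, the 1 adipocyte marker in the table, from 10 to 19 reads to 4 to 8. Leukocyte markers (3 of 4) summed to 10 to 19 reads, with Ptprc at 1 read or fewer, and 1 of 4 muscle markers to 3 or fewer. The part of these shifts in the results below was not tested, and in bulk RNA a change in the share of cells that express a gene and a change in RNA per cell cannot be told apart.

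The coding sequences of the 3 Gli genes are shown because the results turn on telling their reads apart. They are alike where the DNA-binding zinc fingers are encoded. The 150-base stretch below, from GENCODE M21 transcripts (GRCm38), lies at coding positions 1021 to 1170 of Gli1 (chr10:127333715-127334264, minus strand, across the junction of exons 10 and 11 of 13), 1558 to 1707 of Gli2 (chr1:118842114-118844416, minus strand, exons 11 and 12 of 14) and 1747 to 1896 of Gli3 (chr13:15715049-15720138, plus strand, exons 12 and 13 of 15). Capitals mark the 113 of 150 bases (75.3%) that are identical in all 3 genes.
Gli1: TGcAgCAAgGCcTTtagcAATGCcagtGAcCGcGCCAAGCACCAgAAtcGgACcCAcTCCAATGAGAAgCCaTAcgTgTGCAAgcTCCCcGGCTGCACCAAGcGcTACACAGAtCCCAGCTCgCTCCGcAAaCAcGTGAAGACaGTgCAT
Gli2: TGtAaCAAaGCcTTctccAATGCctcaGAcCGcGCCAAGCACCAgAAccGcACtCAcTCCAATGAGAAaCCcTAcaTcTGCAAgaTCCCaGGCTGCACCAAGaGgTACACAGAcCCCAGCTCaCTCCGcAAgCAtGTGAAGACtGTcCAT
Gli3: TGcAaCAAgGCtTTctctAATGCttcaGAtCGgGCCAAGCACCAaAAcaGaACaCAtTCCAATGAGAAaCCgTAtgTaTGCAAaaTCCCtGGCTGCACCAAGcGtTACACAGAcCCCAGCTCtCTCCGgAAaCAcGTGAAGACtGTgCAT
Differences are spread over the whole stretch. Within it Gli1 and Gli2 shared 82.7% of bases, Gli1 and Gli3 80.0%, and Gli2 and Gli3 83.3%. The longest run of identical bases anywhere in the 3 transcripts was 23 for Gli1 and Gli2, 14 for Gli1 and Gli3, and 25 for Gli2 and Gli3, all shorter than the 100-base reads. No 100-base window of the transcripts of Gli1, Gli2 or Gli3 occurred in another gene's transcript, so reads of that length that match without error belong to 1 of them. The same held for the other members except Smo, for which 17 of 3680 windows (0.462%) also occurred in Gm4066. Only 1 transcript per gene was examined, that with the longest coding sequence. For Sufu, Gsk3b and Csnk1a1 it gave 1648, 1651 and 1761 windows, against 7691, 9831 and 10502 bases of merged exons. Much of the exon sequence of these 3 genes was therefore not checked. Coverage was partial for other members too, as for Smo (3680 windows against 5621 bases) and Gli1 (3958 against 4995). No exon overlapped an exon of another gene on the same strand. Exons of Gli1, Gli3 and Kif7 overlapped antisense genes by 327, 188 and 928 bases, and the counts are those of the sense strand.

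Of the 10 genes, 5 rose with purmorphamine (Gli1, Gli2, Kif7, Smo and Spop), 3 fell (Csnk1a1, Gsk3b and Gli3) and 2 were not called (Sufu and Stk36), by the quasi-likelihood test of edgeR, with p-values adjusted by Benjamini-Hochberg and called under 0.2, the false-discovery rate of the study. By the same rule 62.5% of all genes tested were called, 31.4% higher and 31.1% lower, and the count of 8 in 10 is to be read against that background. At an adjusted p under 0.05 the calls of 7 members remained, 5 higher and 2 lower, against 46.9% of all genes, 23.2% higher and 23.6% lower. After scaling, the groups did not overlap for 8 members, 5 higher and 3 lower, against 49.2% of all genes, 24.2% higher and 25% lower. In the reads as deposited they did not overlap for 7 members, against 49.5% of all genes. In size the members differed widely. Gli1 and Gli2 rose by more than 1.5-fold, and the 6 other called members changed by less. Of all genes tested, 15.4% were called with a change of at least 1.5-fold in either direction. The median log2 fold change of the 10 was 0.077, against 0.0038 over all genes tested, and the median of the absolute values 0.22 against 0.20.

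**Figure D1:**
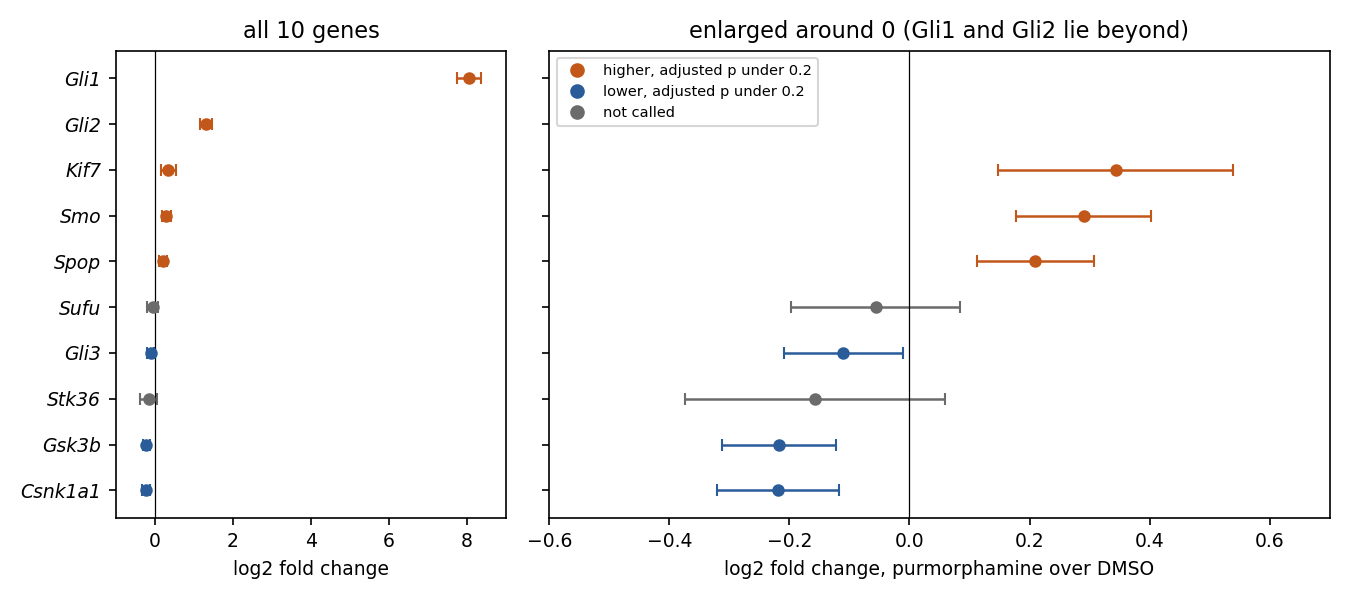
Log2 fold change of each gene, purmorphamine over DMSO, from edgeR (points) with 95% confidence intervals (bars), on the full range at left and enlarged around 0 at right. The bar of Gli1 is too narrow for its few vehicle reads. Gli1 (8.05) and Gli2 (1.31) stand apart from the other 8 genes, which lie between -0.22 and 0.34; the intervals of Sufu and Stk36 span 0.

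Smo is the 7-transmembrane protein that purmorphamine binds and that passes the signal to the Gli proteins. Its gene (ENSMUSG00000001761) spans chromosome 6 from 29685494 to 29711565 in mm9, the build of the deposited coordinates. The vehicle libraries held 2514, 2460 and 2588 Smo reads and the purmorphamine libraries 3190, 3488, 2957 and 3108. Every purmorphamine library lay above every vehicle library, and replicate 6 was the highest. Smo rose by 22.3% (log2 fold change 0.29, SE 0.0533, 95% CI 0.18 to 0.40, adjusted p = 0.000256 from edgeR), an increase smaller than 1.5-fold that 36.0% of all genes exceeded in absolute size. The exact permutation test over libraries gave p = 0.0286 (two-sided), the smallest that 3 libraries against 4 allow.

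The 250 bases before the start of Smo, from RefSeq (GRCm38.p6, chr6:29735247-29735496, plus strand), are shown for comparison with those of Gli2 below.
Smo: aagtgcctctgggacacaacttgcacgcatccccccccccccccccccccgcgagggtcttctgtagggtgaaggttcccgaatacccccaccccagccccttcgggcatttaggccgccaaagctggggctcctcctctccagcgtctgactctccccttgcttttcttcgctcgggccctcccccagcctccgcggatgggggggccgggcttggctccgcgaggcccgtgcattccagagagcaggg
This stretch was 68.4% G and C, against a median of 52.4% over 32851 promoter windows of the same length. Neither the 9-letter Gli motif GACCACCCA nor its 7-letter core ACCACCC was found in it on either strand.

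Gli1 is the member that acts mainly as an activator and that amplifies the output of the pathway. Its gene (ENSMUSG00000025407) lies on chromosome 10 from 126766745 to 126778845 (mm9). Reads numbered 12, 7 and 11 with vehicle and 2811, 3171, 2576 and 2522 with purmorphamine. The groups were far apart, with the lowest purmorphamine library, replicate 8, at 2522 reads and the highest vehicle library, number 2, at 12. The fold change was 265 (95% CI 215 to 327), or 8.05 on the log2 scale (SE 0.143, adjusted p = 1.45e-16 from edgeR, exact permutation p = 0.0286), the fifth largest increase of all genes tested. With about 10 reads per vehicle library, the divisor carries most of the error: reads varied by 26.5% (coefficient of variation) with vehicle, where counting alone gives 31.6%, and by 10.7% with purmorphamine, where counting alone gives 1.90%. In the purmorphamine libraries the spread thus exceeded counting error, with replicate 6 the highest. The SE and interval above were derived from the F statistic and are too narrow for so few vehicle reads. They understate the uncertainty of the fold change.

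Gli2 is the principal activator formed from protein already in the cell when Smo becomes active. The gene (ENSMUSG00000048402) lies on chromosome 1 from 120730509 to 120950396 (mm9). Vehicle libraries held 272, 284 and 261 reads, and purmorphamine libraries 685, 754, 717 and 634. Again no library of 1 group reached the range of the other. Gli2 rose 2.48-fold (log2 fold change 1.31, SE 0.0741, 95% CI 1.15 to 1.47, adjusted p = 2.04e-10 from edgeR, exact permutation p = 0.0286), a change that 4.33% of all genes exceeded in absolute size.

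The 250 bases before the Gli2 start are from RefSeq (GRCm38.p6, chr1:119053620-119053869) and are written on the gene's strand, which is the minus strand. They are shown because they alone, among the 8 members with promoter sequence, held the 7-letter Gli core. Capitals mark its reverse complement, GGGTGGT, which begins 205 bases before the start.
Gli2: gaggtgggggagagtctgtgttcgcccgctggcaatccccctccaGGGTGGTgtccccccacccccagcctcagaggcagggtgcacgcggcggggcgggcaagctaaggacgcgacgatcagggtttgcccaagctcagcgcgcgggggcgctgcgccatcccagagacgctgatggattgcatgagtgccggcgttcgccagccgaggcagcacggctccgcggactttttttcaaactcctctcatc
Promoter sequence was matched for 8 of the 10 members, all but Gli1 and Csnk1a1. The core ACCACCC, read on both strands, was present in 1 of these 8 and in 3.92% of the 32851 promoters. The motif GACCACCCA, which contains the core, was in none of the 8 and in 0.225% of all. A match to letters is a description of the sequence and no measure of binding.

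Gli3 is the main source of the Gli repressor in unstimulated cells. Its gene (ENSMUSG00000021318) lies on chromosome 13 from 15554868 to 15822059 (mm9). The reads were 1549, 1703 and 1646 with vehicle and 1540, 1551, 1571 and 1589 with purmorphamine. As deposited these ranges overlapped, through the vehicle library 2, whereas after TMM scaling between libraries they did not. Gli3 fell by 7.35% (log2 fold change -0.11, SE 0.0470, 95% CI -0.21 to -0.011, adjusted p = 0.0648 from edgeR, exact permutation p = 0.0286). This call was the least firm of the 8: it was lost with scaling by library totals alone (log2 fold change -0.063, adjusted p = 0.285 from edgeR) and without the vehicle library 3 (-0.083, adjusted p = 0.252).

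**Figure D2:**
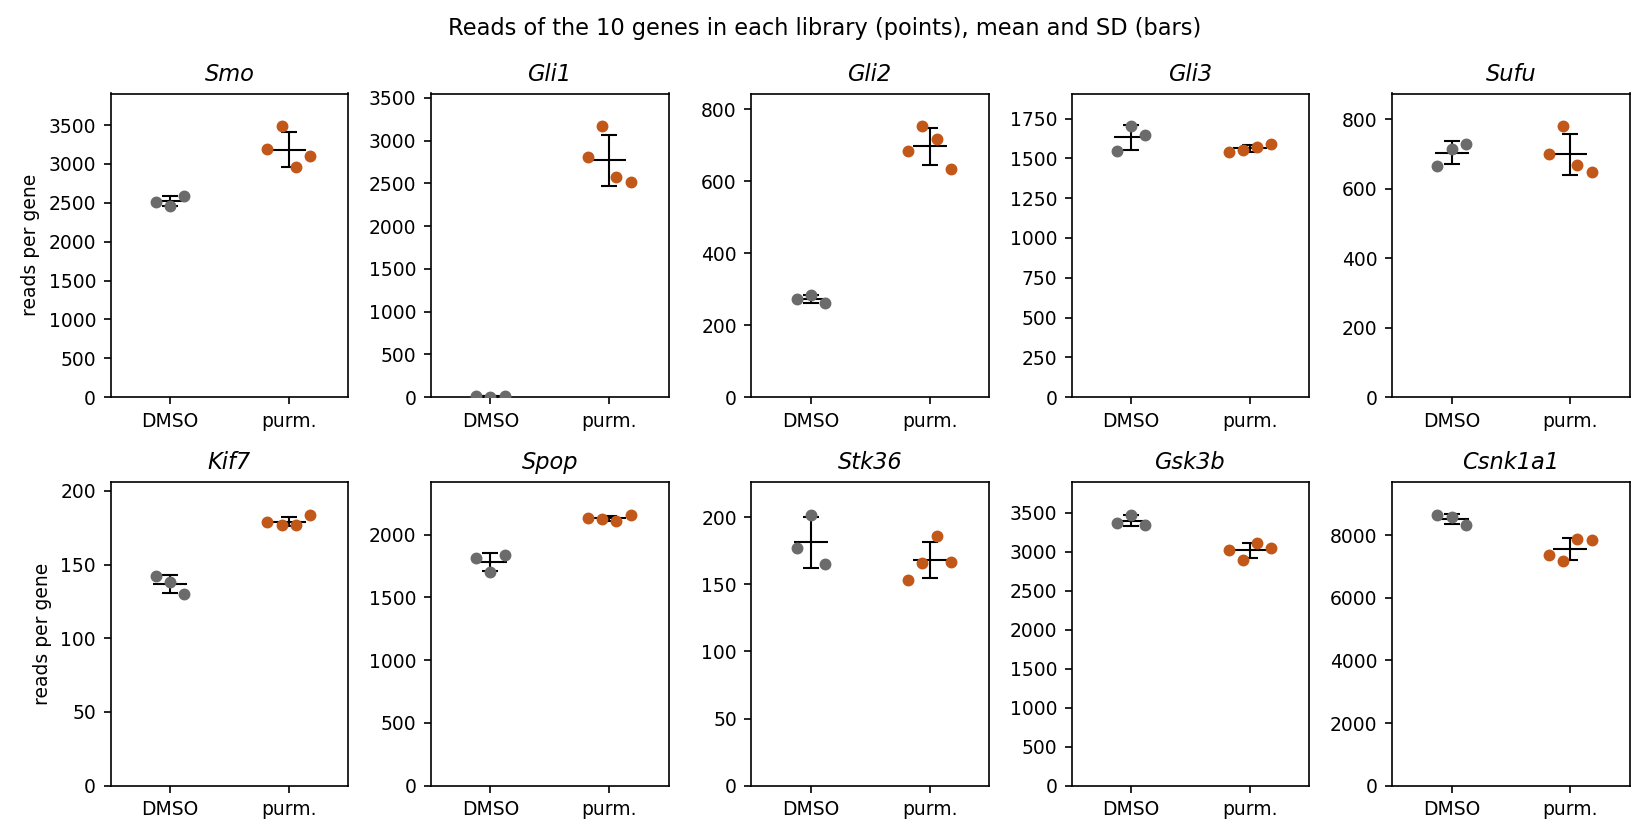
Reads of each gene in every library, as deposited, for DMSO (gray, n = 3) and purmorphamine (purm., orange, n = 4), with the mean and SD as a line and bars; each panel has its own axis from 0. The groups do not overlap for Smo, Gli1, Gli2, Kif7, Spop, Gsk3b and Csnk1a1 and overlap for Gli3, Sufu and Stk36.

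Because the 3 Gli genes moved by such different amounts, their balance within each library was examined per exon length, in RPKM (TMM-scaled reads normalised to exon length, with exons from GENCODE M21, and to library size). With vehicle Gli3 was the leading Gli transcript, at 80.3 ± 0.862% (SD, n = 3) of the summed level of the 3 genes, with Gli2 at 18.7 ± 0.761% and Gli1 at 0.952 ± 0.283%. With purmorphamine Gli1 led at 67.6 ± 1.99% (SD, n = 4), followed by Gli3 at 17.8 to 21.7% (SD 1.70) and Gli2 at 12.4 ± 0.603%. The order of Gli1 and Gli3 was exchanged in every library: Gli1 made up 0.636 to 1.18% with vehicle and 65.8 to 70.0% with purmorphamine. Gli2 rose in level but held a smaller share per exon length, 17.9 to 19.5% with vehicle and 12.1 to 13.3% with purmorphamine. That decrease depends on the division by length. As a share of Gli reads, Gli2 took 14.8, 14.2 and 13.6% with vehicle and 13.6, 13.8, 14.7 and 13.4% after purmorphamine, ranges that overlapped, whereas the exchange of Gli1 and Gli3 held in reads as well. The summed level of the 3 genes went from 15.1 ± 0.554 to 56.3 ± 4.19 RPKM, a ratio of 3.74. These are shares of transcripts, and neither the proteins nor their cleavage were measured.

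**Figure D3:**
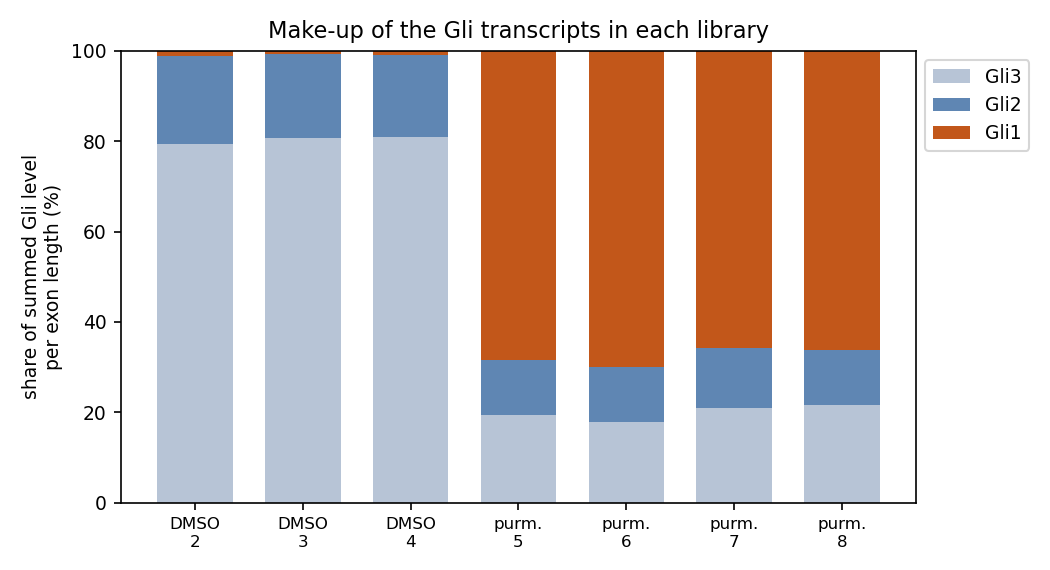
Share of the summed per-length level of Gli1, Gli2 and Gli3 taken by each gene (%), one bar per library (purm. is purmorphamine). Gli3 fills 79.4 to 81.0% of each DMSO bar, and Gli1 65.8 to 70.0% of each purmorphamine bar.

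Ratios of reads between members within a library do not depend on how libraries are scaled, and 8 were computed, with 1 added to each count. All p-values for them are exact two-sided permutation tests, adjusted by Benjamini-Hochberg over the 8. The log2 ratio of Gli1 to Gli3 was -6.90, -7.73 and -7.10 with vehicle and 0.87, 1.03, 0.71 and 0.67 with purmorphamine, so that Gli3 led in every vehicle library and Gli1 in every purmorphamine library (difference 8.06, exact permutation p = 0.0286, adjusted p = 0.0381). Gli1 to Gli2 rose by 6.65 and Gli2 to Gli3 by 1.41, with the same p-values and no overlap between the groups. Gli2 and Gli3 thus changed by different amounts whatever the scaling.

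Sufu binds Gli proteins, holds them out of the nucleus and stabilizes them, and is the chief negative regulator below Smo. The gene (ENSMUSG00000025231) lies on chromosome 19 from 46471186 to 46563494 (mm9). Sufu reads were 666, 716 and 730 with vehicle and 701, 781, 669 and 648 with purmorphamine. The ranges overlapped, and the purmorphamine libraries included both the highest and the lowest values. No change was called (log2 fold change -0.056, 95% CI -0.20 to 0.085, adjusted p = 0.520 from edgeR, exact permutation p = 0.486), and the interval leaves room for a decrease to 0.873 or an increase to 1.06 times the vehicle level. Without purmorphamine replicate 6 the value was -0.10 with an adjusted p of 0.161 (edgeR), past the threshold.

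Relative to Sufu, both Gli2 and Smo were higher with purmorphamine. On the log2 scale Gli2 to Sufu was -1.29, -1.33 and -1.48 with vehicle and -0.033, -0.051, 0.10 and -0.031 with purmorphamine. Gli2 reads thus went from 0.388 to 0.997 times those of Sufu (adjusted p = 0.0381, exact permutation test), to near equality in every purmorphamine library. Smo to Sufu rose by 0.35 (adjusted p = 0.0381, exact permutation test), from 3.58 to 4.55 reads of Smo per read of Sufu. Neither pair of groups overlapped.

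Kif7 is a kinesin of the cilium tip that organizes the compartment where Gli proteins and Sufu are regulated, and it takes part in both activation and repression. Its gene (ENSMUSG00000050382) lies on chromosome 7 from 86842785 to 86859272 (mm9). Kif7 reads were 142, 138 and 130 with vehicle and 179, 177, 177 and 184 with purmorphamine. All purmorphamine libraries lay above all vehicle libraries. Kif7 rose by 26.9% (log2 fold change 0.34, SE 0.0925, 95% CI 0.15 to 0.54, adjusted p = 0.00573 from edgeR, exact permutation p = 0.0286). The 4 purmorphamine counts varied by 1.84%, less than the 7.47% that counting alone gives at this depth, so their closeness is no measure of the precision. The log2 ratio of Kif7 to Sufu was higher in each purmorphamine library than in any vehicle library (difference 0.40), with an exact permutation p of 0.0571 (adjusted p = 0.0653).

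Stk36 is the vertebrate homologue of the fly kinase Fused, best known in mammals for the assembly of motile cilia. Its gene (ENSMUSG00000033276) lies on chromosome 1 from 74647819 to 74683668 (mm9). Reads were 177, 202 and 165 with vehicle and 153, 166, 186 and 167 with purmorphamine. The groups overlapped and no change was called (log2 fold change -0.16, 95% CI -0.37 to 0.060, adjusted p = 0.226 from edgeR, exact permutation p = 0.171). Without the vehicle library 4 (-0.21, adjusted p = 0.157 from edgeR) or the purmorphamine library 7 (-0.21, adjusted p = 0.119) it would have been called lower. Relative to Kif7, which itself rose (log2 fold change 0.34), Stk36 was lower in every purmorphamine library than in any vehicle library. That ratio holds the changes of both genes. The log2 ratio of Stk36 to Kif7 was 0.32, 0.55 and 0.34 with vehicle and -0.23, -0.092, 0.071 and -0.14 with purmorphamine (difference -0.50, adjusted p = 0.0381, exact permutation test).

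Spop is the adaptor that brings Gli2 and Gli3 proteins to a Cul3 ubiquitin ligase for degradation. The gene (ENSMUSG00000057522) lies on chromosome 11 from 95275194 to 95354920 (mm9). Spop reads were 1814, 1704 and 1834 with vehicle and 2130, 2126, 2112 and 2160 with purmorphamine, with no overlap. Spop rose by 15.7% (log2 fold change 0.21, SE 0.0457, 95% CI 0.11 to 0.31, adjusted p = 0.00117 from edgeR, exact permutation p = 0.0286). Of all genes tested, 47.9% changed by more in absolute terms.

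Gsk3b and Csnk1a1 encode GSK3β and CK1α, kinases that act after protein kinase A on Gli proteins and that also serve Wnt signalling. Gsk3b (ENSMUSG00000022812, chromosome 16 from 38088887 to 38246370, mm9) had 3370, 3478 and 3349 reads in the vehicle group and 3028, 2891, 3111 and 3046 in the purmorphamine group. Csnk1a1 (ENSMUSG00000024576, chromosome 18 from 61714728 to 61749915, mm9) had 8655, 8566 and 8320 reads in the vehicle group and 7354, 7156, 7888 and 7836 in the purmorphamine group. In either case all 4 purmorphamine counts were lower than all 3 vehicle counts, and replicate 6 was the lowest. Gsk3b fell by 14.0% (log2 fold change -0.22, SE 0.0448, 95% CI -0.31 to -0.12, adjusted p = 0.000725 from edgeR) and Csnk1a1 by 14.1% (-0.22, SE 0.0481, 95% CI -0.32 to -0.12, adjusted p = 0.00128), each with an exact permutation p of 0.0286. Between the groups the ratio of Gsk3b to Csnk1a1 overlapped, with a mean of 0.399 reads of Gsk3b per read of Csnk1a1 in vehicle and 0.400 in purmorphamine (exact permutation p = 0.971).

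**Figure D4:**
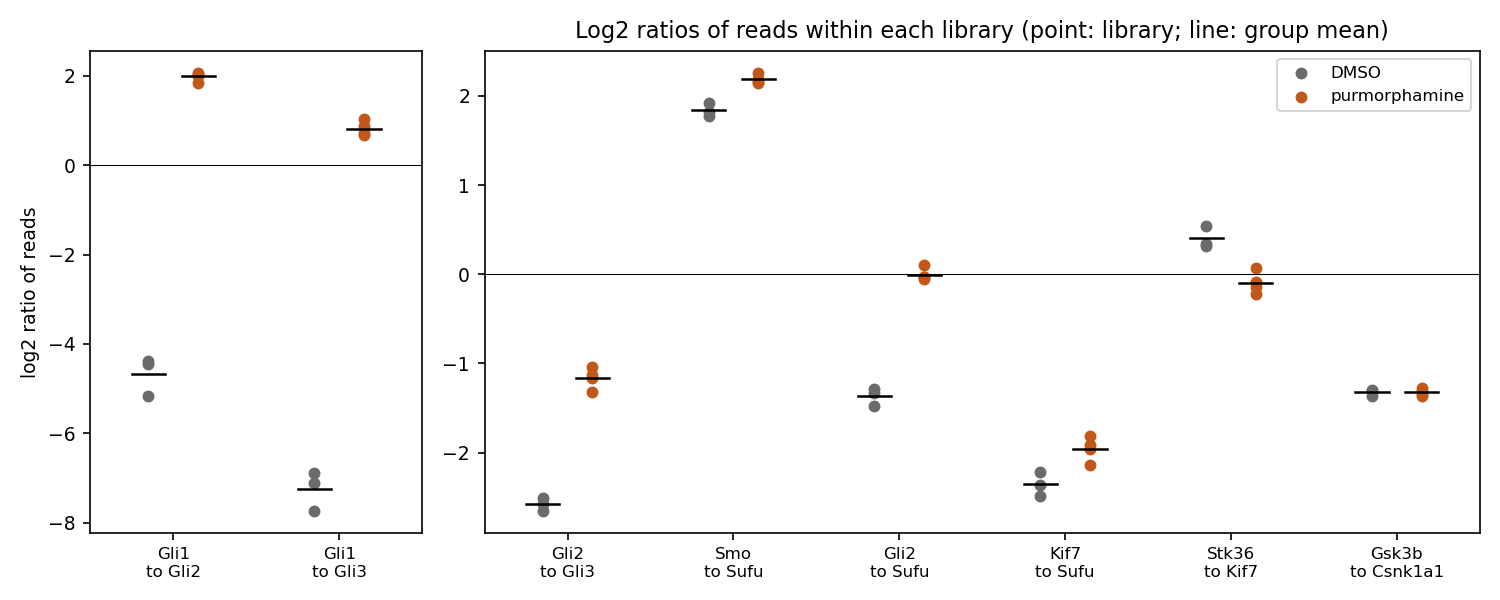
Log2 ratio of reads between pairs of members in each library (points) with group means (lines), DMSO in gray (n = 3) and purmorphamine in orange (n = 4); the left panel has its own axis. The groups are apart for every pair but Gsk3b to Csnk1a1, and Gli2 to Sufu moves from -1.37 to near 0.

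Levels of different genes were compared per exon length. With vehicle the order in RPKM was Csnk1a1 (57.6 ± 1.07), Spop (40.1 ± 1.74), Smo (31.9 ± 0.943), Gsk3b (24.6 ± 0.395), Gli3 (12.1 ± 0.549), Sufu (6.50 ± 0.312), Gli2 (2.82 ± 0.107), Kif7 (2.12 ± 0.0911), Stk36 (2.00 ± 0.199) and Gli1 (0.142 ± 0.0381), each mean ± SD with n = 3. Kif7 and Stk36 overlapped, and all other neighbours were apart in every library. By this measure the 4 most abundant were Csnk1a1, Spop, Smo and Gsk3b, and Gli1 was last. The order depends on the division by merged exon length. In mean deposited reads with vehicle the same 4 led, in the order Csnk1a1 (8514), Gsk3b (3399), Smo (2521) and Spop (1784). With purmorphamine Gli1 moved from the last place to the fourth, at 38.1 ± 3.94 (SD, n = 4), and its libraries overlapped with those of Smo at 39.0 ± 2.56. Csnk1a1 (49.5 ± 2.54) and Spop (46.4 ± 0.352) overlapped at the top, as did Gli2 (6.98 ± 0.511) and Sufu (6.26 ± 0.504). Gsk3b (21.1 ± 0.744), Gli3 (11.2 ± 0.176), Kif7 (2.69 ± 0.0464) and Stk36 (1.80 ± 0.153) were apart from their neighbours.

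**Figure D5:**
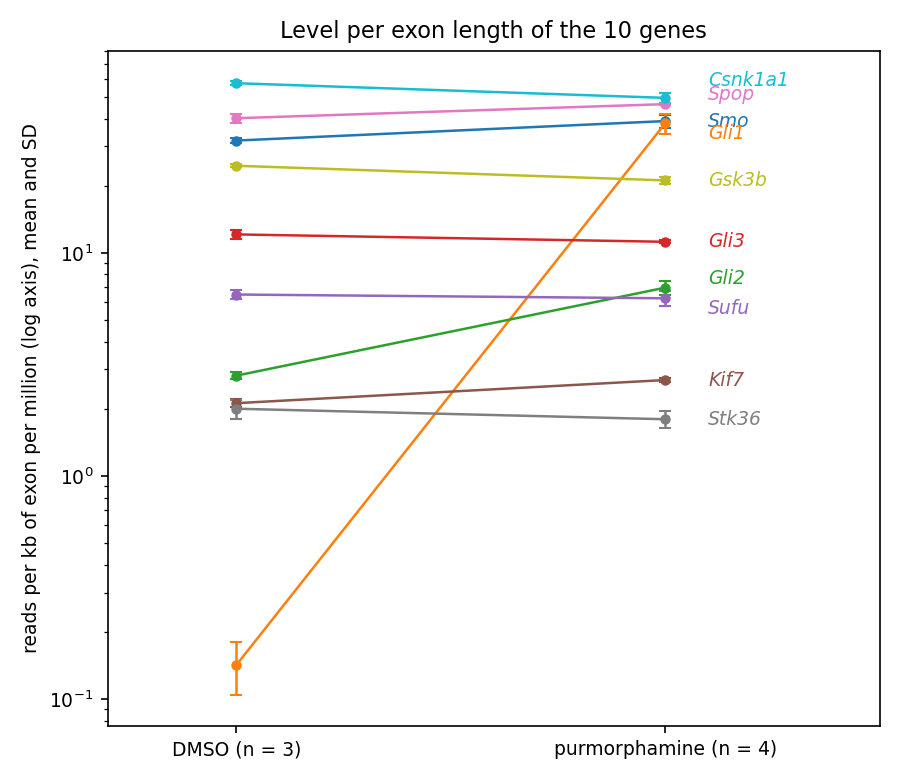
Level of each gene in RPKM (log axis), mean and SD, with DMSO (n = 3) at left and purmorphamine (n = 4) at right. Gli1 climbs from 0.142 to 38.1, next to Smo, and Gli2 from 2.82 to 6.98, while the other lines are nearly flat. With purmorphamine the mean of Gli2 lies above that of Sufu (6.26), but their libraries overlap.

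Among the purmorphamine libraries, replicate 6 had the highest scaled reads of the 4 for Smo, Gli1, Gli2 and Sufu and the lowest for Kif7, Spop, Gsk3b and Csnk1a1. It was thus an extreme for 8 of 10 members, and over all genes tested it was an extreme for 61.9%, against 36.3%, 57.8% and 44.0% for replicates 5, 7 and 8. The widest span was that of Gli1, whose highest library exceeded its lowest 1.25-fold, and the narrowest that of Spop, at 1.02-fold. No call of the 5 members that rose was lost when replicate 6, or any other library, was left out.

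Other genes of the pathway were described from 4 lists made by role, whose counts are to be read against the 31.4% higher and 31.1% lower among all genes tested. Of 15 receptors, co-receptors, ligands and their handlers, 9 could be tested, of which 5 were higher and 4 lower, with a median log2 fold change of 0.17 against 0.0038 for all genes. Hhip, a membrane protein that traps ligand, had 1, 1 and 0 reads in the vehicle group and 139, 197, 173 and 152 in the purmorphamine group, at least 55.1-fold higher against a floor of 3 reads per library. Ptch1, the receptor that restrains Smo, went from 521 ± 15.1 to 10922 ± 475 reads (log2 fold change 4.34, SE 0.0597, adjusted p = 6.39e-18 from edgeR). Scube3, of a family of secreted proteins linked to ligand release, fell by 3.85 on the log2 scale (341 ± 4.93 to 24.3 ± 6.24 reads), and Gas1, a co-receptor for ligand, by 1.06 (27528 ± 554 to 13596 ± 352).

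Of 20 genes listed as Gli targets, 15 could be tested, and 8 were higher, 5 lower and 2 not called (median log2 fold change 0.14). Ptch1 and Hhip belong to this list too. Bcl2, an inhibitor of apoptosis, had 164, 136 and 150 reads in the vehicle group and 626, 518, 622 and 620 in the purmorphamine group (log2 fold change 1.94, SE 0.0944, adjusted p = 3.04e-11 from edgeR). Ccnd1, which encodes cyclin D1, went from 2858 ± 119 to 9474 ± 369 reads (1.68, SE 0.0512, adjusted p = 1.10e-13). The 5 lower genes of 15 are near the share of all genes that were lower (31.1%). They were Sfrp1, Snai1, Foxf1a, Cdk6 and Ccne1. Sfrp1 fell the most, from 7986 ± 248 to 2784 ± 112 reads (log2 fold change -1.57, adjusted p = 9.96e-14 from edgeR).

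The third list, of 34 further regulators of Smo and Gli, held 33 that could be tested, of which 11 were higher, 11 lower and 11 not called (median log2 fold change -0.0049), near the shares over all genes (31.4% higher and 31.1% lower). Arrb1, a β-arrestin involved in Smo trafficking, rose by 0.93 on the log2 scale (157 ± 10.0 to 310 ± 11.5 reads). Ulk3, a kinase of Gli proteins, rose by 0.67 (215 ± 24.0 to 355 ± 16.7), as did Pias1, a SUMO ligase for Gli proteins, by 0.58 (1076 ± 11.1 to 1664 ± 80.7). Dyrk2, a kinase that promotes Gli2 degradation, fell by 0.70 (419 ± 22.7 to 267 ± 27.6). The changes of these 4 genes stayed under 2-fold, as did those of the 6 regulators described above.

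Of 20 relatives of the members in sequence, 16 could be tested, with 9 higher, 2 lower and 5 not called (median log2 fold change 0.13). The 11 called are near the 62.5% called over all genes. By direction, the 9 higher lie above the 31.4% over all genes and the 2 lower below the 31.1%. That difference was not tested. Glis2, a Gli-similar zinc-finger factor, rose by 0.69 on the log2 scale (824, 811 and 822 reads with vehicle, 1376, 1521, 1303 and 1255 with purmorphamine), less than Gli2 did. Fzd7 and Fzd1, Wnt receptors of the family to which Smo belongs, rose by 0.32 each, and Ulk4, a relative of Ulk3, by 0.51 with overlapping libraries (43.0 ± 5.29 to 63.3 ± 12.1 reads). The increases of Fzd7 and Fzd1 were close in size to that of Smo. Fzd2, the remaining Fzd gene of the list, went the other way, with a log2 fold change of -0.13 (adjusted p = 0.0389 from edgeR).

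Genes whose pattern over the 7 libraries was most like that of a member were sought among the 10672 that averaged 50 reads or more, by the Euclidean distance between centred log2 scaled reads. For Gli1 these were Sostdc1 (distance 1.33), Alpl (1.61) and Hhip (2.06). Sostdc1, which encodes a secreted antagonist of BMP and Wnt signalling, was at 0 reads in all vehicle libraries and 156, 115, 151 and 150 with purmorphamine, at least 47.7-fold higher against 3 reads per library. Alpl, an alkaline phosphatase gene of bone and other tissues, was read 0, 1 and 0 times with vehicle and 195, 228, 205 and 181 times with purmorphamine, at least 67.4-fold higher. For a member that rises this much the distance mostly reflects the size of the change.

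Closest to Gli2 were Map3k1 (0.100), Dab2 (0.159) and Svil (0.160). Map3k1, a kinase of the MAP kinase cascade, had 339, 356 and 330 reads in vehicle libraries and 822, 961, 888 and 835 in purmorphamine libraries, and its log2 fold change was 1.31, as for Gli2. Dab2, an endocytic adaptor, and Svil, an actin-binding protein, rose by 1.30 each. Closest to Smo were Scpep1 (0.0616), Flii (0.0649) and Fbxo10 (0.0661), which rose by 0.30, 0.33 and 0.29. In all 3 of these the highest purmorphamine library was replicate 6, as for Smo. Replicate 6 was the highest purmorphamine library for 31.2% of all genes tested. The genes near Gli2 and Smo were picked for likeness over these same libraries. Their similar size of change and library order therefore largely follow from the choice.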

How the data were processed

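Total RNA, depleted of ribosomal RNA, was sequenced by the authors as stranded libraries with single 100-base reads, from 7 libraries of C3H10T1/2 cells. The submitters' processing notes name STAR 2.5.3a and mm9, and the annotation is not given in the sources used here. The authors resampled reads to equal numbers across libraries and deposited sense-strand counts per gene, which are whole numbers. Nothing was pooled, and every library column was used.

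The counts were fitted with edgeR 4.0.16 in R 4.3.3 (TMM factors, default filter with a minimum count of 10 and total of 15, quasi-likelihood test, no covariates), with Benjamini-Hochberg adjustment over 12388 genes and calls at an adjusted p under 0.2. Each SE is the log2 fold change over the square root of F, and the confidence intervals rest on it. Both are too narrow where the change is large and a group has few reads, as for Gli1. Exact permutation tests over the 35 assignments of the libraries used log2 scaled counts with 1 added. Levels (RPKM) were TMM-scaled reads over merged GENCODE M21 exon length and library size, matched by Ensembl identifier. Promoters are from RefSeq. The calculations were tested on simulated counts. DESeq2 1.42.0, limma-voom (limma 3.58.1), other scalings, filters and thresholds, and fits without each library in turn served as alternatives. Genes named beside the members were, per list, the 4 largest changes among called genes averaging 50 reads or more, and the 3 genes nearest to Gli1, Gli2 and Smo. Fzd2 and the lower Gli targets were named in addition, as genes that moved against the others. The members and lists were chosen with earlier results of these data known. Resampling discards reads, and p-values cover these libraries only.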

Additional observations from a re-analysis of the deposited data

Results flagged for a closer look

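A value was set aside for a second look when 1 of the 4 purmorphamine libraries lay apart from the rest, with a gap to its nearest neighbour above Dixon's 95% critical value, as a share of the range of the 4. Of 40 values examined, 3 met this, where chance gives about 1 in 20, or 2. The log2 ratio of Gli2 to Sufu had a gap of 0.872 of its range, with replicate 7 at 0.10 and the nearest library at -0.031. For Bcl2 the gap was 0.925, from replicate 6, with 508 scaled reads against 610 in the nearest library. For Sostdc1 it was 0.847, again from replicate 6, with 113 scaled reads against 148. In all 3 cases every purmorphamine library stayed above every vehicle library. The 3 vehicle libraries are too few for this comparison.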

How the results depend on the processing

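Of the recomputed values, 249 kept their direction and their side of the threshold or stayed close to the reported value, and 8 did not. The log2 ratio of Gsk3b to Csnk1a1, not called, was the only member value to change sign (-0.017 to 0.015 with each library left out, where ratios were recomputed as values only). With a change of at least 1.5-fold also required, the members higher went from 5 to 2 and those lower from 3 to 0. The decrease of Gli3 was no longer called with library totals alone (-0.063, adjusted p = 0.285), without DMSO replicate 3 (-0.083, adjusted p = 0.252) or at an adjusted p under 0.05 (-0.11, adjusted p = 0.0648, all edgeR); its log2 fold change ran from -0.14 to -0.083 with each library left out. Over the same runs Sufu ranged from -0.10 to -0.015, being called without purmorphamine replicate 6, and Stk36 from -0.21 to -0.076, being called without DMSO replicate 4 or purmorphamine replicate 7. The number of members lower ranged from 2 to 4 and that of members higher stayed at 5. Scaling by library totals alone raised the median log2 fold change of all genes by 0.048, which bears on changes as small as that of Gli3, by construction. The other causes were not tested. With library totals alone the list of further regulators held 15 higher and 8 lower, in place of 11 of each. Over the 12388 genes tested that scaling gave 4650 higher and 3163 lower. A filter that asks for 10 counts in each library removes Gli1, which had 7 reads in DMSO replicate 3. Smo, Gli2, Kif7, Spop, Gsk3b and Csnk1a1 kept their calls under all 14 alternatives computed for single genes, and Gli1 under the 13 that gave a value. The 1.5-fold requirement is not among these, and only Gli1 and Gli2 met it. No paired analysis was possible because DMSO libraries carry the numbers 2 to 4 and purmorphamine libraries 5 to 8. At this depth Gli1, near 10 reads with vehicle, and Kif7 and Stk36, at 202 reads or fewer, are the least precisely measured.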
